A study of Mus musculus with 27 samples.

Results

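The regions described here are peaks of histone H3 trimethylated at lysine 4 (H3K4me3) that were found in every cell state of the series. They were selected from the H3K4me3 peaks of wild-type (WT) mouse embryonic stem cells (ESC). A peak was taken if it was narrower than 5000 bp, was overlapped by at least 1 bp by a peak in each of the other 7 H3K4me3 lists, and met no peak of trimethylated H3 lysine 27 (H3K27me3) in WT ESC. Of 19468 WT ESC H3K4me3 peaks, 9738 (50.0%) passed, covering 26.1 Mb. They are called the shared regions below. Their presence in all lists, their width limit and their lack of H3K27me3 in WT ESC come from the selection and are not results.

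The series used chromatin immunoprecipitation followed by sequencing (ChIP-seq) to follow the H3K27 demethylase UTX through reprogramming. The H3K4me3 states were Utx-KO fibroblasts (Utx-/Y MEF) with doxycycline (dox), WT fibroblasts (Utx+/Y MEF) with dox, Utx-KO MEF and WT MEF without dox, aberrant Utx-KO iPS clones 1 and 2, Utx-KO V6.5 ESC (Utx-/Y) and WT V6.5 ESC (Utx+/Y). The fibroblasts carried V19-OSKM, dox-inducible reprogramming factors, and all fibroblast and ESC states were grown in medium with 2i and LIF, the inhibitors and cytokine that favour ground-state pluripotency. The sources used here do not give the length of the dox treatment, how far the cells had reprogrammed, or the number of animals or cultures pooled. Of 27 samples, 19 had a peak list (8 for H3K4me3, 8 for H3K27me3 and 3 for UTX, the last from WT cells). The other 8 were whole-cell extracts and were not analysed here.

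H3K4me3 is laid down at the promoters of active genes, many of them in CpG islands, and at promoters that are poised. H3K27me3 is written by Polycomb repressive complexes and marks silent chromatin. Where both marks lie together in ESC the promoter is called bivalent. UTX removes methyl groups from H3K27 and is also a subunit of complexes that methylate H3K4, so its loss can bear on both marks.

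Each state had 1 library per mark, apart from the 2 iPS clones, so no difference between states has a replicate check and no test was made. The 95% intervals are Wilson intervals over regions and cover counting error only. Sequencing depth was unknown. The H3K4me3 lists held 16157 to 28232 peaks, and the H3K27me3 lists held 135 to 36231. Scores are the authors' own, served only for ranking and filtering within a list, and were saturated at about 3100 in several lists. Positions are 1-based on mouse build mm9. No annotation of that build was used, so no region was given a gene name and gene lists were not analysed here.

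The shared regions were wider in WT ESC than the other narrow peaks. There were 17331 WT ESC peaks narrower than 5000 bp and without H3K27me3, of which the shared regions made up 56.2%. They were 13.9% of such peaks below 1500 bp, 45.2% from 1500 to 2000 bp, 73.0% from 2000 to 2500 bp and 88.6% from 4000 to 5000 bp. Their median width in WT ESC was 2580 bp, against 1464 bp for the 7593 narrow peaks that at least 1 list lacked. Wider peaks offer more sequence to meet a peak of another list, so the selection favours them. How far this sets the difference was not tested. Before the other conditions were applied, 10907 WT ESC peaks were met in all lists, of which 508 had H3K27me3 in WT ESC and 661 were 5000 bp or wider.

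The fibroblast lists without dox set most of the boundary. Among narrow peaks missing from a single list, 340 were missing from Utx-KO MEF and 542 from WT MEF. Another 119 were missing only from Utx-KO ESC, 65 only from iPS clone 1, 6 only from Utx-KO MEF with dox, 11 only from WT MEF with dox and 2 only from iPS clone 2. The width limit cut through a continuous range, with 321 shared regions from 4500 bp up to the limit and 216 otherwise shared peaks from 5000 to 5500 bp. Just inside it were chr6:38300707-38305705 (4999 bp) and chr15:61815366-61820362 (4997 bp). Just outside it were chr18:66616696-66621696 (5001 bp) and chr2:164592966-164597968 (5003 bp).

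The shared regions ranked high in every H3K4me3 list. Their median rank by score, as a percentile of the list, was 65.4 in Utx-KO MEF with dox and 70.7 in WT MEF with dox. Without dox it was 72.6 in Utx-KO MEF and 66.8 in WT MEF. It was 74.2 in iPS clone 1, 89.1 in iPS clone 2, 71.1 in Utx-KO ESC and 69.9 in WT ESC. The other narrow peaks, where a list had them, had median percentiles from 22.8 to 46.1. The rank is that of the best peak at a region, and a call in every list was required. High ranks are thus partly set by the selection. The peaks on shared regions made up 34.9% of the iPS clone 2 list and 70.6% of the WT MEF list, with the other lists in between.

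H3K4me3 at the shared regions was widest in fibroblasts with dox and narrowest in fibroblasts without it. The width given for a region is that of the widest peak meeting it. The median was 3421.5 bp (quartiles 2861 and 4130) in Utx-KO MEF with dox and 2914 bp (2394 and 3610) in WT MEF with dox. Without dox it was 1254 bp (927 and 1679) in Utx-KO MEF and 1464 bp (1081 and 1940) in WT MEF. The iPS clones differed from each other, with 1860 bp (1456 and 2376) in clone 1 and 2595 bp (2106 and 3199) in clone 2. Utx-KO ESC had 2456 bp (1923 and 3100) and WT ESC 2580 bp (2053 and 3233). Clone 2 and both ESC lists thus had medians between 2456 and 2595 bp, with fibroblasts with dox above them and fibroblasts without dox and clone 1 below. Fibroblasts with and without dox were also the extremes over whole lists. Median peak widths there were 3063 bp (Utx-KO) and 2379 bp (WT) with dox, and 832 and 1118 bp without. In the other narrow peaks they were 2302 and 1875 bp with dox, and 571 and 726.5 bp without. This contrast is thus not particular to the shared regions.

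Region by region the order was much the same. Utx-KO MEF with dox had the widest H3K4me3 of all 8 lists at 6653 shared regions (68.3%) and WT MEF with dox at 1543. The narrowest was in Utx-KO MEF at 5807 (59.6%), in WT MEF at 2692 and in iPS clone 1 at 1010. Such counts were not made for the other WT ESC H3K4me3 peaks. Widths ranked most alike between Utx-KO ESC and WT ESC (Spearman rho 0.84 over 9738 regions), followed by iPS clone 2 with WT ESC (0.76) and with Utx-KO ESC (0.75) and by the fibroblast lists with dox (0.74). Between Utx-KO MEF and WT MEF without dox rho was 0.63 from the widest peak and 0.78 from the span of all peaks at a region. These correlations are across regions and have no p-value, since all regions of a list come from 1 library.

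**Figure D1:**
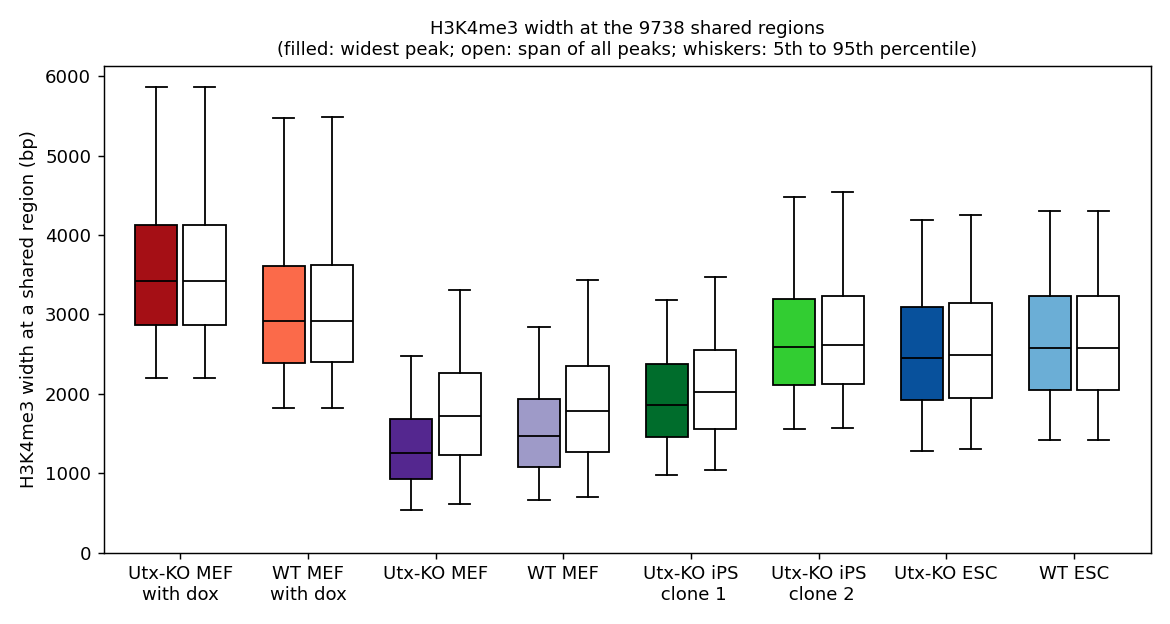
H3K4me3 width in bp at the 9738 shared regions in each of the 8 lists, as boxes from the lower to the upper quartile with the median as a line and whiskers from the 5th to the 95th percentile. Filled boxes give the widest peak and open boxes the span of all peaks at a region, and the open boxes are higher in MEF without dox (medians 1716 bp in untreated Utx-KO MEF and 1787 bp in untreated WT MEF).

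In fibroblasts without dox many shared regions did not carry 1 continuous peak. H3K4me3 was split into at least 2 peaks at 4496 shared regions (46.2%) in Utx-KO MEF and at 2791 (28.7%) in WT MEF. Of all WT ESC H3K4me3 peaks met in those lists, 45.1% were split in Utx-KO MEF and 29.3% in WT MEF, and the shared regions make up most of those peaks. Of the other narrow peaks met, 15.1% were split in Utx-KO MEF and 6.18% in WT MEF, and of the peaks of 5000 bp or wider 74.8% and 61.1%. In iPS clone 1 the number was 1365 (14.0%), against 14.4% of all peaks met. It was 254 (2.61%) in Utx-KO ESC, against 3.65% of all, and 224 (2.30%) in iPS clone 2, against 3.36%. In Utx-KO MEF with dox it was 8 (0.0822%), against 0.273% of all, and in WT MEF with dox 39 (0.400%), against 0.802%.

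The splits were short. The median gap between neighbouring peaks was 139 bp in Utx-KO MEF, 155 bp in WT MEF and 131.5 bp in iPS clone 1. The midpoint of a gap was a median of 385 bp from the centre of the WT ESC peak in Utx-KO MEF and 353 bp from it in WT MEF. H3K4me3 covered the centre at 85.7% of the shared regions in Utx-KO MEF, 88.1% in WT MEF and 97.7% in iPS clone 1. In the other 5 lists it covered the centre of at least 99.5% of them.

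The split regions overlapped between the fibroblast genotypes. Both lists were split at 2085 shared regions, which is 46.4% of those split in Utx-KO MEF and 74.7% of those split in WT MEF. Where WT MEF had a single peak, Utx-KO MEF was split at 34.7%. Split regions were wider in ESC. Those split in Utx-KO MEF had a median WT ESC width of 2911.5 bp, against 2310.5 bp for those that were whole. In WT MEF the values were 3052 bp for split and 2393 bp for whole regions.

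**Figure D2:**
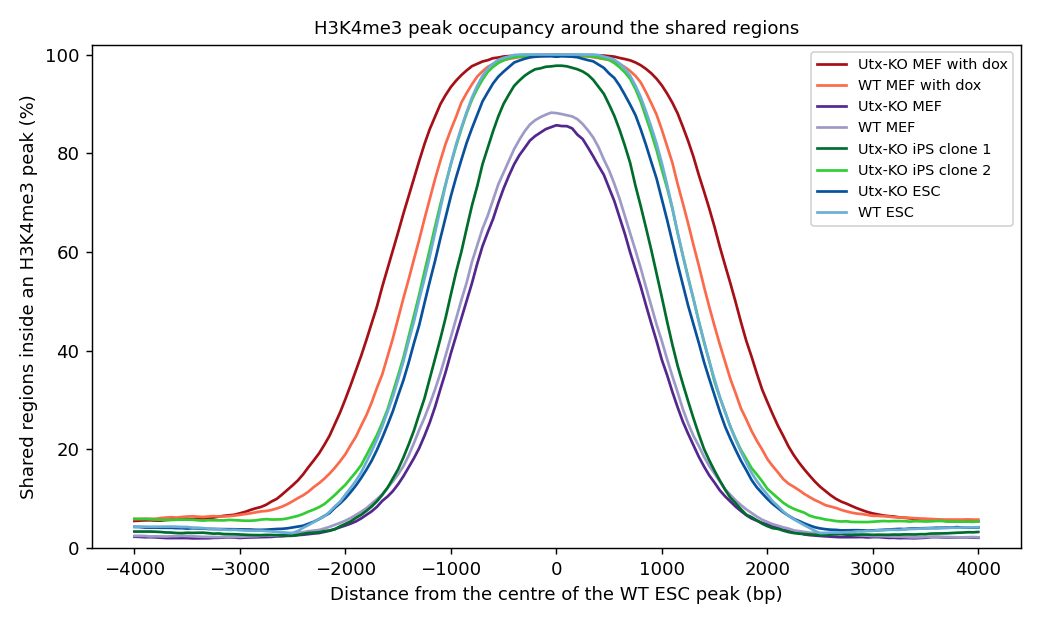
Percent of the 9738 shared regions that lay inside an H3K4me3 peak, by distance in bp from the centre of the WT ESC peak, for each list. At 1500 bp above the centre the curves stood at 65.1% in Utx-KO MEF with dox and 45.0% in WT MEF with dox, against 13.3% in Utx-KO MEF and 15.1% in WT MEF. The curves of MEF without dox top out below the others.

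The differences in width were spread over both edges. Compared with the WT ESC peak, the median outer edge in Utx-KO MEF with dox lay 365 bp further out on the lower-coordinate side and 369 bp further out on the other. In WT MEF with dox it lay 140 and 130 bp further out. Edges lay inside the WT ESC peak in the lists without dox, at medians of -407 and -406 bp in Utx-KO MEF and -363 and -376 bp in WT MEF. In iPS clone 1 they were at -258 and -269 bp, in iPS clone 2 at 9 and -2.5 bp and in Utx-KO ESC at -51 and -52 bp. Both edges lay outside the WT ESC peak at 6708 shared regions (68.9%) in Utx-KO MEF with dox and at 4457 (45.8%) in WT MEF with dox. At a given region the 2 sides were only weakly related, with Pearson's r of 0.22 in Utx-KO MEF with dox and 0.13 in WT MEF with dox over 9738 regions, as a description.

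Doxycycline came with wider H3K4me3 at nearly all shared regions in both genotypes. In Utx-KO MEF the median ratio of widths with dox over without was 2.73 (quartiles 2.05 and 3.67). The peak was wider with dox at all 9738, as at 100% of all WT ESC H3K4me3 peaks met in both lists. In WT MEF the median ratio was 1.96 (1.51 and 2.70). The peak was wider with dox there at 9645 of 9738 regions (99.0%), against 98.9% of all. A ratio of at least 2 was reached by 7496 shared regions (77.0%) in Utx-KO MEF, against 79.1% of all WT ESC H3K4me3 peaks met in both lists. In WT MEF it was reached by 4721 (48.5%), against 51.7% of all. The share of shared regions that widened to this degree was thus a little below the background in both genotypes.

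Split regions raise these ratios by construction, since the widest of several short peaks is set against 1 long peak. Measured from the outermost ends of all peaks at a region, a measure chosen after the data were seen, the median ratio was 1.95 in Utx-KO MEF and 1.60 in WT MEF. H3K4me3 was still wider with dox at 9737 shared regions in Utx-KO MEF, and at 99.97% of all peaks met. In WT MEF it was wider at 9547 (98.0%), against 97.9% of all. On this measure 4564 regions (46.9%) in Utx-KO MEF reached a ratio of 2, against 50% of all peaks met, and 2768 (28.4%) in WT MEF, against 31.6%. Regions with a single peak in untreated Utx-KO MEF had a median ratio of 2.24 on either measure, and those with a single peak in untreated WT MEF 1.71. The split regions had 3.21 by the widest peak and 1.75 by the span in Utx-KO MEF, and 2.58 and 1.41 in WT MEF.

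The ratio with dox was lower in the shared regions than in the narrow peaks that at least 1 list lacked. Those had a median of 4.12 in Utx-KO MEF (880 peaks present in both lists) and 2.67 in WT MEF (665 peaks). By span the values in Utx-KO MEF were 1.95 for the shared regions and 3.60 for the other narrow peaks, and in WT MEF 1.60 and 2.50. Peaks of 5000 bp or wider had 2.90 in Utx-KO MEF and 2.26 in WT MEF by the widest peak, above the shared regions, and 1.63 and 1.48 by the span, below them. Among the shared regions the ratio varied little with the WT ESC width. Medians over 6 width classes were between 2.62 and 3.06 in Utx-KO MEF and between 1.90 and 2.08 in WT MEF. Against the width without dox, its denominator, the ratio had Spearman's rho of -0.77 in Utx-KO MEF and -0.70 in WT MEF. The other narrow peaks were narrower without dox, with medians of 571 bp against 1254 bp in Utx-KO MEF. In WT MEF the medians were 726.5 bp against 1464 bp. How far this bears on the ratios was not tested. Narrow peaks outside the shared set enter this comparison only where fibroblasts had a peak, so the sets differ in how they were chosen.

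The extremes show both ends of this range. At chr13:63372906-63377386 the width was 10820 bp in Utx-KO MEF with dox and 14162 bp in WT MEF with dox, against 382 bp in untreated Utx-KO MEF and 528 bp in untreated WT MEF. The same region had 1881 and 3730 bp in iPS clones 1 and 2, 4353 bp in Utx-KO ESC and 4481 bp in WT ESC. Its ratio of 26.8 in WT MEF was the highest of all shared regions, and it also carried a UTX peak in WT ESC (score 51.1). Next came chr5:123581597-123583608, with 2431 bp in Utx-KO MEF with dox and 16009 bp in WT MEF with dox, against 521 bp in untreated Utx-KO MEF and 667 bp in untreated WT MEF. Its ratio in WT MEF was 24.0. The width of chr3:88296124-88297896 was 12234 bp in WT MEF with dox and 650 bp in WT MEF.

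At the other end, chr11:94798136-94799753 had 10321 bp in Utx-KO MEF with dox and 2530 bp in WT MEF with dox, against 4128 bp in untreated Utx-KO MEF and 5386 bp in untreated WT MEF. Its ratio in WT MEF was 0.47, the lowest there by the widest peak. Next lowest in WT MEF were chr3:121425210-121427697 (2903 bp with dox and 4974 bp without) and chr3:107562481-107563635 (2338 bp with dox and 3929 bp without). Both were wider with dox in Utx-KO MEF, at ratios of 1.72 and 1.54. The 3 regions all carried H3K27me3 in Utx-KO ESC, with scores of 814, 417 and 583.

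Shared regions that shrank with dox were thus rare, and long dox peaks sometimes ran over several regions. In Utx-KO MEF with dox 177 peaks each lay over at least 2 shared regions and took in 358 of them (3.68%), and in WT MEF with dox 146 peaks took in 294. In Utx-KO MEF 26 peaks took in 52 and in WT MEF 37 took in 74. Shared regions are otherwise well apart, with a median of 69957 bp to the next one on the chromosome, and 1098 of 9718 neighbouring pairs (11.3%) lie within 10000 bp.

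Utx-KO and WT cells differed in H3K4me3 width by less than the states did, and in opposite directions with and without dox. The median ratio of Utx-KO over WT was 1.16 in MEF with dox (quartiles 1.03 and 1.30). There Utx-KO was wider at 7764 shared regions (79.7%), against 76.2% of all WT ESC H3K4me3 peaks met in both lists. In MEF without dox the ratio was 0.88 (0.68 and 1.07), with Utx-KO wider at 3154 (32.4%), against 32.4% of all. In ESC it was 0.95 (0.85 and 1.05), with Utx-KO wider at 3604 (37.0%), against 36.1% of all. These shares were thus near the background. The span gave 1.16 with dox, 0.95 without dox and 0.96 in ESC. With no replicates these differences between genotypes cannot be told apart from differences between libraries.

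Large differences between the genotypes were few. In MEF without dox 839 shared regions (8.62%) were at most 0.5 times as wide in Utx-KO as in WT cells, against 9.1% of all WT ESC peaks met in both lists, and by span the number was 359 (3.69%), against 4.21%. In MEF with dox 207 regions (2.13%) were at least 2-fold wider in Utx-KO cells, against 2.72% of all peaks met, and 48 (0.493%) at least 2-fold narrower, against 0.964%. In ESC 79 (0.811%) were wider to this degree, against 1.41% of all, and 62 (0.637%) narrower, against 1.96%. In MEF with dox the ratio was lower at regions that were wide in WT ESC, with a median of 1.21 below 1500 bp and 1.12 from 4000 to 5000 bp. In ESC the median was 1.04 below 1500 bp and 0.92 from 4000 to 5000 bp, so its direction was not the same in all width classes.

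The aberrant iPS clones differed from each other in width relative to WT ESC. Clone 1 had a median ratio to WT ESC of 0.75 (quartiles 0.63 and 0.86) and clone 2 a ratio of 1.00 (0.90 and 1.13), a mean of 0.875 ± 0.174 (SD, n = 2). Clone 1 was at most 0.5 times as wide as WT ESC at 1046 shared regions (10.7%), against 15.8% of all WT ESC peaks it met. By span this number was 366 (3.76%), against 8.7% of all. Clone 2 was that narrow at 27 (0.277%), against 1.71% of all. Clone 2 had a long H3K4me3 list, 28232 peaks against 23388 in clone 1, and 4882 shared regions (50.1%) had a peak score of 3100 or more in it, against 1545 (15.9%) in clone 1. How far the number and scores of peaks bear on the difference in width was not tested.

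**Figure D3:**
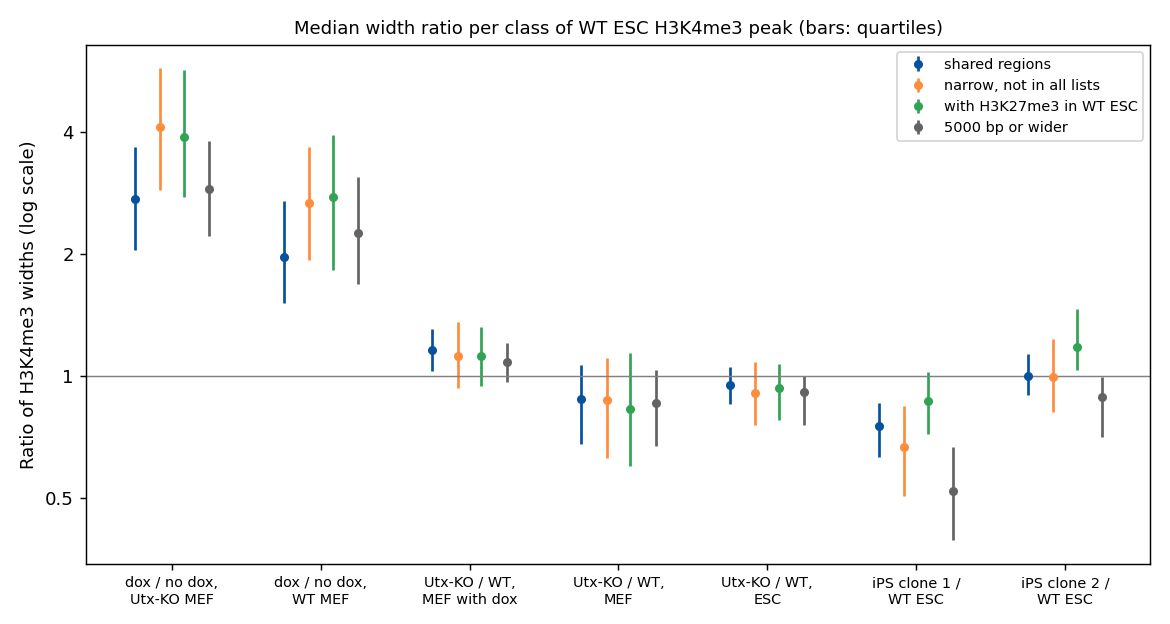
Median ratio of H3K4me3 widths (widest peak, log axis) for 7 comparisons, with bars from the lower to the upper quartile, in the shared regions, the other narrow peaks, peaks with H3K27me3 in WT ESC and peaks of 5000 bp or wider. The dox ratios of the shared regions (2.73 in Utx-KO MEF and 1.96 in WT MEF) are the lowest of the 4 classes, which by span holds only against the other narrow peaks and those with H3K27me3, and the ratios of Utx-KO over WT are close to 1 in every class.

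UTX was rarely called at the shared regions. In WT ESC 394 of them (4.05%, 95% interval 3.67 to 4.46) met a UTX peak, against 6.63% of all WT ESC H3K4me3 peaks. The share was 9.35% (8.72 to 10.0) in the other narrow peaks, 22.8% (20.0 to 25.9) in peaks of 5000 bp or wider and 0.806% (0.451 to 1.44) in peaks with H3K27me3. In WT MEF with dox 133 shared regions (1.37%) met a UTX peak, against 1.14% of all WT ESC peaks, and in WT MEF 21 (0.216%), against 0.108% of all. All 21 WT ESC H3K4me3 peaks with UTX in WT MEF were shared regions. The selection bears on this, since it required H3K4me3 in WT MEF. Shared regions were 9738 of the 11767 WT ESC peaks that met an H3K4me3 peak there. The UTX list of WT MEF held 372 peaks, while the list of WT MEF with dox held 3540 and that of WT ESC 5076.

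UTX in WT ESC went with width and with a limited distribution of the H3K4me3 peak over states. In the shared regions its share was 1.09% below 1500 bp, 2.30% from 1500 to 2000 bp, 2.89% from 2000 to 2500 bp, 3.36% from 2500 to 3000 bp, 5.46% from 3000 to 4000 bp and 10.5% from 4000 to 5000 bp. The other narrow peaks had higher shares in each class, from 6.33% below 1500 bp to 32.4% from 4000 to 5000 bp, and the intervals of the 2 sets did not overlap in any class. Counted by the number of other H3K4me3 lists that met the peak, the share was 15.7% with none, 12.8% with 1, 12.3% with 2, 9.44% with 3, 7.07% with 4, 4.59% with 5, 4.06% with 6 and 4.05% with all 7. Wider peaks offer more sequence to overlap, and at the centre of the WT ESC peak UTX covered 0.883% of the shared regions.

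The UTX peaks at the shared regions mostly scored below 100. With UTX and H3K4me3 peaks held to a score of at least 100, the share with UTX in WT ESC was 0.680%, that in WT MEF with dox 0.0108% and that in WT MEF 0. Their median score in WT ESC was 65.6, against 74.3 for the rest of that list. In WT MEF with dox it was 57.3, against 56.0, and in WT MEF 70.3, against 80.1. The midpoints in WT ESC lay a median of 736 bp from the centre of the H3K4me3 peak. UTX in WT ESC covered 0.883% of centres, with the highest coverage at 250 bp to either side (0.996% below and 0.945% above). At 1500 bp it covered 0.534% below and 0.462% above. UTX calls at the shared regions rarely coincided between states. Among 537 shared regions with UTX in any list, 9 had it in both WT ESC and WT MEF with dox, 2 in both WT ESC and WT MEF, and 0 in both WT MEF with dox and WT MEF. The overlap to be met by chance was not computed, nor was the overlap among all WT ESC H3K4me3 peaks. The calls mostly scored below 100, and in WT MEF only 21 shared regions had one. Whether the sites differ between states was thus not tested. Regions with UTX in WT ESC were wider there, at a median of 3158 bp, against 2560.5 bp for those without. Their width ratios with dox were much like those of the rest, at 2.65 with UTX and 2.74 without in Utx-KO MEF, and 1.97 with UTX and 1.96 without in WT MEF. The ratio of Utx-KO over WT in ESC was 0.92 with UTX and 0.95 without. This ratio also fell with WT ESC width, with medians of 1.04 below 1500 bp and 0.92 from 4000 to 5000 bp.

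The highest UTX scores in WT ESC were, with 1 exception, on regions with H3K4me3 above the median width there. First was chr1:53007066-53010566, with a UTX peak of score 280 and 621 bp. Its H3K4me3 width was 3851 bp in Utx-KO MEF with dox, 2768 bp in WT MEF with dox, 390 bp in Utx-KO MEF, 736 bp in WT MEF, 1976 and 2887 bp in iPS clones 1 and 2, 4329 bp in Utx-KO ESC and 3501 bp in WT ESC. At this region H3K4me3 was narrow in both fibroblast lists without dox and wide in ESC and with dox. Next were chr9:44687531-44691686 (UTX score 249), chr17:95263239-95266985 (234), chr15:12133248-12137409 (227) and chr4:130179554-130181436 (225). The last was 1883 bp wide in WT ESC and the other 4 were 3501 to 4162 bp. None of these 5 regions had H3K27me3 in Utx-KO ESC or in any fibroblast list.

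Outside WT ESC, H3K27me3 peaks met the shared regions mainly in Utx-KO ESC. There, 1497 of the 9738 (15.4%, 14.7 to 16.1) met an H3K27me3 peak, while in WT ESC the number is 0 by selection. Any peak in Utx-KO ESC therefore counts as a gain below. Of all WT ESC H3K4me3 peaks without WT ESC H3K27me3, 18.7% met one in Utx-KO ESC, so the share in the shared regions was a little below that background. The share was 24.7% (23.7 to 25.6) in the other narrow peaks, 2.33% (1.48 to 3.65) in those of 5000 bp or wider, and 97.6% in those that already had H3K27me3 in WT ESC. The Utx-KO ESC list held 36231 H3K27me3 peaks and the WT ESC list 5679. With the Utx-KO ESC list cut to its 5679 highest scores, 615 shared regions (6.32%, 5.85 to 6.82) had a peak. The WT ESC number beside it stays 0 by selection, so the cut lists do not compare the genotypes.

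The gain was less frequent the wider the H3K4me3 peak was in WT ESC. It was 38.4% below 1500 bp, 26.3% from 1500 to 2000 bp, 17.2% from 2000 to 2500 bp, 11.4% from 2500 to 3000 bp, 6.74% from 3000 to 4000 bp and 5.85% from 4000 to 5000 bp. In the other narrow peaks the shares in the same classes were 23.2, 28.7, 28.4, 21.8, 17.3 and 12.0%. Below 1500 bp the shared regions therefore gained H3K27me3 more often than the other narrow peaks, and from 2000 to 4000 bp less often, with intervals that did not overlap. They overlapped from 1500 to 2000 bp and from 4000 to 5000 bp. Over the number of other H3K4me3 lists that met a narrow peak, the share was 3.12% with none, 6.87% with 1, 10.7% with 2, 17.5% with 3, 41.2% with 4, 53.7% with 5, 44.7% with 6 and 15.4% with all 7. It thus peaked in regions marked in most but not all states.

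**Figure D4:**
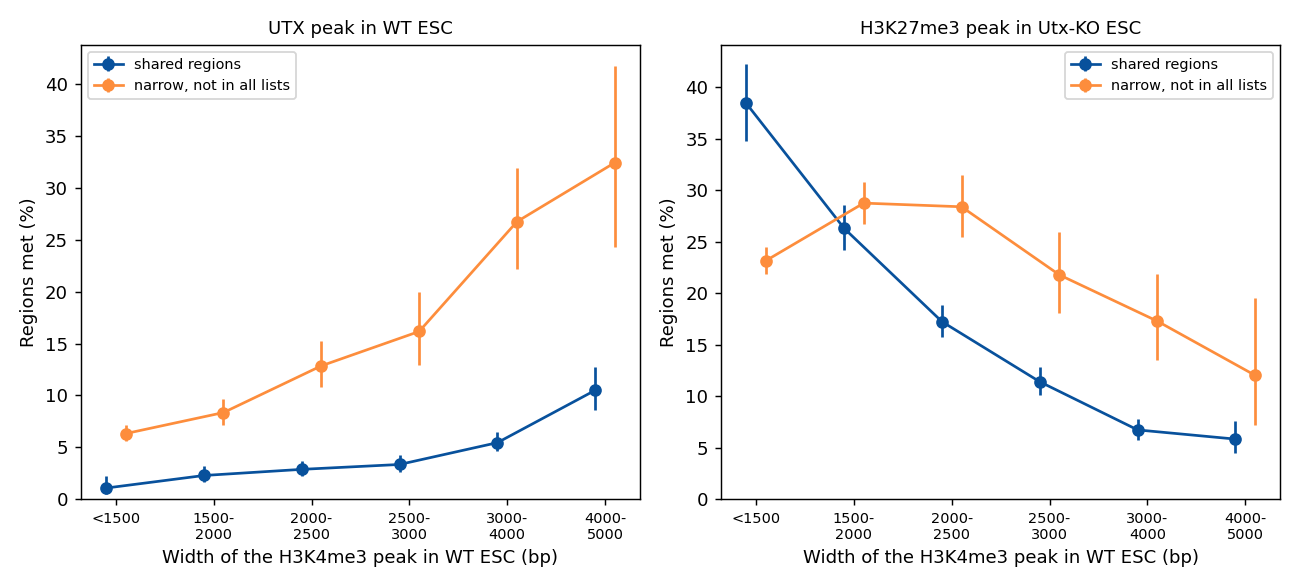
Percent of regions that met a UTX peak in WT ESC (left) and an H3K27me3 peak in Utx-KO ESC (right), by width of the WT ESC H3K4me3 peak in bp, for the shared regions and for the other narrow peaks. Points are shares, bars are 95% Wilson intervals and the lines only join the points. UTX climbs with width in both sets (to 10.5% in the shared regions and 32.4% in the others), while H3K27me3 in the shared regions drops with width, with 38.4% in the narrowest class and 5.85% in the widest.

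H3K27me3 in Utx-KO ESC missed the centre of the shared region about as often as it covered it. Of the 1497 regions, 767 (51.2%) had it without reaching the centre, 452 (30.2%) had it over the centre but not over the whole region, and 278 (18.6%) were covered from end to end. The median share of a region covered was 55.4%. Over all shared regions the mark covered 7.51% of centres, 10.5% of points 1250 bp to either side, and 4.38 and 4.27% of points 5000 bp below and above. At 20000 bp below and above it still covered 5.20 and 5.12%, where WT ESC H3K27me3 covered 0.493 and 0.380%. The Utx-KO ESC list was thus denser far from the regions too. In the other narrow peaks H3K27me3 in Utx-KO ESC covered 18.0% of centres and 18.9% of points 1000 bp below. A peak lay within 20000 bp of 43.5% of the shared regions in Utx-KO ESC and of 9.87% in WT ESC. The H3K27me3 peaks on shared regions scored higher than the rest of the Utx-KO ESC list, with a median of 208, against 97.7.

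**Figure D5:**
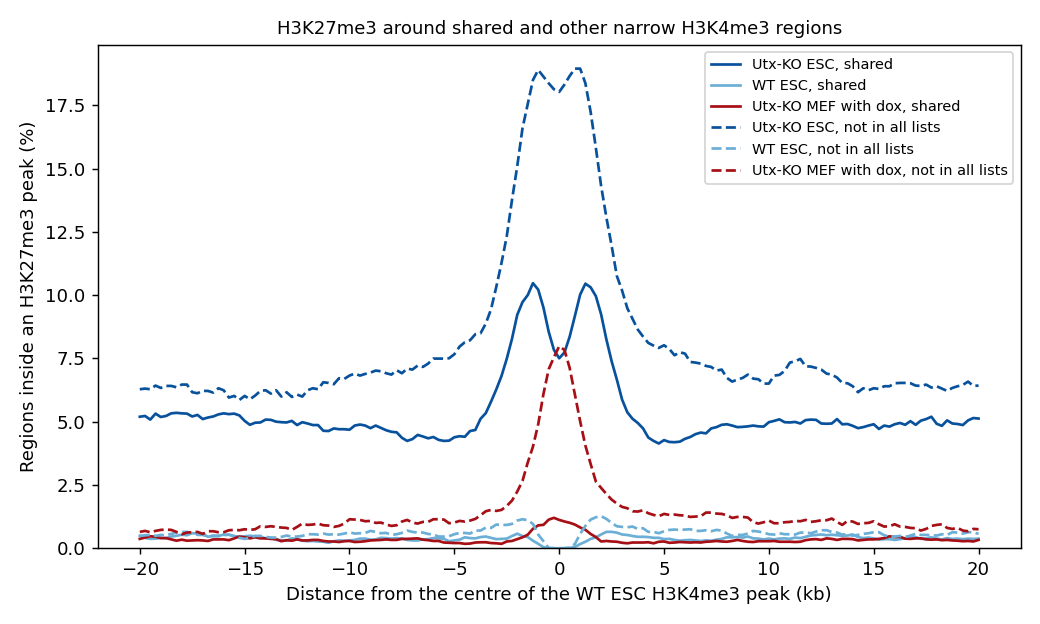
Percent of regions inside an H3K27me3 peak by distance in kb from the centre of the WT ESC H3K4me3 peak, in the shared regions (solid) and the other narrow peaks (dashed), for 3 lists. Utx-KO ESC has 2 maxima beside the centre of the shared regions with a dip to 7.51% between them, and the WT ESC lines reach 0 at the centre because regions with H3K27me3 there were not selected.

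Regions that gained H3K27me3 in Utx-KO ESC had narrower H3K4me3 in ESC, at a median of 1932 bp in Utx-KO ESC and 2101 bp in WT ESC, against 2551 and 2664 bp in those that did not gain it. Their ratio of Utx-KO over WT in ESC was 0.94, against 0.96, so H3K4me3 width differed little between the genotypes at either. With dox their median widths were close to those of the rest, with 3464 bp against 3415 bp in Utx-KO MEF and 2860 bp against 2921 bp in WT MEF.

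The highest score was at chr5:75551424-75553376, where an H3K27me3 peak of 12575 bp in Utx-KO ESC scored 3203. H3K4me3 there was 10034 bp wide in Utx-KO MEF with dox, 4338 bp in WT MEF with dox, 5434 bp in Utx-KO MEF, 1755 bp in WT MEF, 1855 and 5235 bp in iPS clones 1 and 2, 1734 bp in Utx-KO ESC and 1953 bp in WT ESC. H3K4me3 was thus broadest in Utx-KO fibroblasts at this region, both with and without dox. Next by score were chr11:21900101-21902841 and chr11:118898009-118899472 (both 3100), chr11:118946141-118948361 (3092) and chr6:52122106-52123457 (3077). Their H3K27me3 peaks were 7066 to 14740 bp wide. Of these 5 regions only chr11:21900101-21902841 had H3K27me3 in a fibroblast list (Utx-KO MEF, score 149). At chr6:52122106-52123457 H3K4me3 was 29389 bp wide in Utx-KO MEF with dox and 2189 bp in WT MEF with dox, against 658 bp in untreated Utx-KO MEF and 980 bp in untreated WT MEF.

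In fibroblasts few shared regions carried H3K27me3, and the largest number of the 4 fibroblast lists was in Utx-KO cells with dox. There the number was 208 (2.14%, 1.87 to 2.44), against 5.66% of all WT ESC H3K4me3 peaks without WT ESC H3K27me3. In WT MEF with dox it was 33 (0.339%, 0.241 to 0.476), against 0.53% of all. Without dox Utx-KO MEF had 93 (0.955%), against 3.23% of all, and WT MEF 90 (0.924%), against 3.29%. The lists with dox differed in length, at 4335 peaks in Utx-KO MEF and 938 in WT MEF. With 938 top-scoring peaks from each, 29 shared regions (0.298%) had H3K27me3 in Utx-KO MEF with dox and 33 in WT MEF with dox. The excess in Utx-KO cells with dox therefore rests on peaks below the top 938 of their list. At a score of at least 100 the share in Utx-KO MEF with dox was 0.809%.

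The iPS clones had almost no H3K27me3 at the shared regions. Clone 1 had it at 3 (0.0308%), against 0.0331% of all WT ESC H3K4me3 peaks without WT ESC H3K27me3, and clone 2 at 8 (0.0822%), against 0.0884%. Their lists held 135 and 737 H3K27me3 peaks in all, and no shared region had the mark in both clones.

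The regions marked in fibroblasts overlapped those marked in Utx-KO ESC. Of the 208 with H3K27me3 in Utx-KO MEF with dox, 154 (74.0%) had it in Utx-KO ESC, which is 10.3% of the 1497 there. Of the 33 in WT MEF with dox, 12 (36.4%) had it there. Of the 93 in Utx-KO MEF, 67 (72.0%) had it in Utx-KO ESC, and of the 90 in WT MEF, 55 (61.1%). Over all shared regions the share in Utx-KO ESC was 15.4%. The 208 regions were set apart by narrow H3K4me3 without dox, at a median of 714.5 bp in Utx-KO MEF, against 1263 bp in the other shared regions, and 985.5 bp in WT MEF, against 1473 bp. With dox their median width was 3207 bp in Utx-KO cells and 2913 bp in WT cells, so the median ratio with dox was 4.31 in Utx-KO MEF and 2.93 in WT MEF.

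The highest H3K27me3 score in Utx-KO MEF with dox was 725, at chr4:153515837-153518286, where Utx-KO ESC had a peak of score 1531 and WT MEF one of 144. H3K4me3 there was 4965 bp wide in Utx-KO MEF with dox, 4336 bp in WT MEF with dox, 1124 bp in Utx-KO MEF, 1088 bp in WT MEF, 1615 and 2118 bp in iPS clones 1 and 2, 1816 bp in Utx-KO ESC and 2450 bp in WT ESC. A wide H3K4me3 peak and an H3K27me3 peak were thus called at the same place in Utx-KO MEF with dox. The next 4 were chr19:54119026-54120679 (score 624), chr3:82931263-82932807 (557), chr6:28084120-28086547 (471) and chr4:138008583-138012887 (410). All 5 also had H3K27me3 in Utx-KO ESC, and none had it in WT MEF with dox.

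Few shared regions had both UTX in WT ESC and H3K27me3 in Utx-KO ESC. The 2 coincided at 24, which is 6.09% (4.13 to 8.90) of the 394 with UTX, while 1473 of the 9344 without UTX (15.8%, 15.0 to 16.5) gained H3K27me3. Because UTX was on wide and H3K27me3 on narrow regions, the shares were also set side by side within width classes. From 4000 to 5000 bp 5.68% of those with UTX and 5.87% of those without gained H3K27me3, from 3000 to 4000 bp 4.69% and 6.86%, and from 2500 to 3000 bp 1.47% and 11.8%. From 2000 to 2500 bp the shares were 14.9% and 17.3%, and from 1500 to 2000 bp 5.56% and 26.8%. The intervals did not overlap between 1500 and 2000 bp and between 2500 and 3000 bp, where 36 and 68 regions had UTX, and overlapped in the other 3 of these classes. Below 1500 bp only 7 regions had UTX, and none of them gained H3K27me3. The coincidence of UTX and H3K27me3 was not counted for the other WT ESC H3K4me3 peaks. Whether it is particular to the shared regions was thus not tested.

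Of the 24, the highest H3K27me3 score was 721, at chr8:73388413-73390654, where UTX in WT ESC scored 104. This region also had H3K27me3 in Utx-KO MEF with dox (343) and in WT MEF (88.4). H3K4me3 there was 5058 bp wide in Utx-KO MEF with dox and 4586 bp in WT MEF with dox, against 1305 bp in untreated Utx-KO MEF and 927 bp in untreated WT MEF. It was 1235 bp wide in Utx-KO ESC and 2242 bp in WT ESC. The next 4 by H3K27me3 score in Utx-KO ESC were chr14:79699491-79701965 (660), chr6:125298873-125300921 (355), chr12:114378071-114380426 (263) and chr4:86519237-86521243 (239). Their UTX scores were between 53.4 and 73.4.

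Most shared regions had neither. H3K27me3 was present in at least 1 of the 7 lists other than WT ESC at 1614 (16.6%), of which 1397 had it in a single list, 140 in 2, 55 in 3, 20 in 4 and 2 in 5. The remaining 8124 had it in no list, and 7631 (78.4%) had neither H3K27me3 nor UTX in any list. These counts over several lists were not made for all WT ESC H3K4me3 peaks. In single lists the background was 18.7% for H3K27me3 in Utx-KO ESC and 6.63% for UTX in WT ESC. Whether the lack of both is particular to the shared regions was thus not tested.

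The shared regions on chromosome X met H3K27me3 in Utx-KO ESC less often than those on autosomes, with intervals that did not overlap. Of 278 on X, 11 met a peak (3.96%, 2.22 to 6.95), against 1486 of 9460 on autosomes (15.7%, 15.0 to 16.5), where single chromosomes ranged from 12.0 to 19.6%. UTX in WT ESC was called at 3 on X (1.08%, 0.368 to 3.12) and at 391 on autosomes (4.13%, 3.75 to 4.55). These regions on X had a median WT ESC width of 2219 bp, narrower than on any autosome, and the highest median dox ratios of any chromosome, at 3.40 in Utx-KO MEF and 2.34 in WT MEF by the widest peak. Among the other narrow peaks on X, 17.4% met H3K27me3 in Utx-KO ESC, near the low end of single autosomes (16.5 to 31.4%). The Utx-KO ESC list held 303 H3K27me3 peaks on X, of 36231 in all. By genotype (Utx+/Y and Utx-/Y) the fibroblasts and ESC carry 1 X. How far this bears on the values for X was not tested. The shared regions were 51.9% of the narrow peaks on X, and no shared region lay on Y, where WT ESC had 3 narrow peaks.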

How the data were processed

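ChIP-seq peak lists of 19 immunoprecipitated samples were used. The authors deposited 1 list per sample with position and score of each peak; MACS 1.4.1, Bowtie 0.12.5, CASAVA 1.8.2 and the build mm9 are named in the submitters' processing notes, without the settings or the control behind each list. Called per sample, the deposited scores ran from 50, and 1 mitochondrial peak was left out. Groups came from sample titles and source names. Depth was unknown, and it can move the number and width of peaks. Overlaps of at least 1 bp were computed with numpy 2.4.6 and pandas 2.3.3 in Python 3.11.15, tested on simulated data and against bedtools 2.31.1, with equal counts for 18 of 18 lists. A width is that of the widest peak meeting a region. A ratio of at least 2 or at most 0.5 was called a change. Named regions are the 5 highest by UTX score in WT ESC, by H3K27me3 score in Utx-KO ESC and in Utx-KO MEF with dox, the 3 highest and 3 lowest width ratios with dox in WT MEF, 5 with both UTX and H3K27me3, and those nearest the width limit. Alternatives tried were a score minimum of 100, overlap by 50%, a width limit of 3000 bp or none, UTX within 1000 bp, equal numbers of top peaks, summed widths and leaving out each iPS clone. The regions, rules and lists were chosen with earlier results of these data known.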

Additional observations from a re-analysis of the deposited data

Results flagged for a closer look

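The median ratio of H3K4me3 width in Utx-KO over WT cells at the shared regions ran in opposite directions between contexts, at 1.16 in MEF with dox, 0.876 in MEF without dox and 0.95 in ESC. Over all WT ESC H3K4me3 peaks met in both lists the medians were 1.15, 0.874 and 0.94. The difference between these contexts was not tested, since each state had 1 library.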

How the results depend on the processing

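Of 122 alternative values, 77 moved by less than their error, 37 moved further and 8 were counts of shared regions with no error. No width ratio among them crossed 1, while shares and counts have no direction to change. The span of iPS clone 2 alone was not among them. Its ratio to WT ESC was 1.003 by the span and 0.998 by the widest peak. Errors of the shares and of ratios between single libraries are over regions only. The contrast in H3K27me3 between Utx-KO and WT MEF with dox (208 against 33 shared regions) was not among these values. With lists of equal length it was 29 against 33. The number of shared regions was between 6555 (limit 3000 bp) and 10399 (no limit). Width ratios with dox in Utx-KO MEF were 2.69 at a score of at least 100, 2.64 with equal numbers of H3K4me3 peaks, 2.09 for summed widths and 1.95 for the span, which was chosen after the data were seen. In WT MEF they were 1.93, 1.91, 1.66 and 1.60 under the same settings, and 1.94 with the limit at 3000 bp. The ratio of Utx-KO over WT was 1.18 (3000 bp) in MEF with dox, 0.930 (sum) and 0.950 (span) in MEF, and 0.963 (3000 bp), 0.958 (sum) and 0.959 (span) in ESC. The share with UTX in WT ESC was 0.680% (score), 3.65% (50% overlap), 2.72% (3000 bp), 4.95% (no limit) and 4.90% (within 1000 bp). In WT MEF with dox it was 0.0108% (score), 1.14% (50% overlap), 1.02% (3000 bp) and 2.00% (within 1000 bp), and in WT MEF 0 (score). H3K27me3 in Utx-KO ESC was at 12.8% (score), 10.5% (50% overlap), 19.7% (3000 bp), 14.5% (no limit), 13.0% (equal H3K4me3 numbers) and 6.32% (its list cut to the WT number). In Utx-KO MEF with dox it was 0.809% (score), 1.49% (equal H3K4me3 numbers) and 0.298% (cut list), and in Utx-KO MEF 0.755%, 0.625% and 0.729%. The cause of these shifts was not tested. Leaving out 1 iPS clone gave ratios to WT ESC of 0.752 to 0.998 and 9740 to 9803 shared regions. No paired analysis was possible because the states have 1 library each and share no replicate pairs. Unknown depth limits every width and every count of peaks.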
